A study of Rattus norvegicus with 18 samples.

Results

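The 9 genes described here encode molecules that call leukocytes towards a tissue or hold them at the vessel wall. They comprise 5 chemokines, namely Ccl2, Cx3cl1, Cxcl12, Cxcl14 and Cxcl16, 3 adhesion molecules, namely Icam1, Icam2 and Vcam1, and Cd47, a surface protein that restrains phagocytes. The genes were listed by symbol, with no threshold on a measured value but with earlier results of these rats known, and they make up 9 of the 38445 genes counted. All 9 were among the 17853 genes tested, but Ccl2 exceeded the cutoff of 0.5 counts per 1e6 counts (CPM) in withdrawal rats only.

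RNA was sequenced from the dorsal hippocampus of 18 adult male Sprague Dawley rats, which were 75 to 85 days old on arrival and were each a separate animal. The 6 control rats received the Lieber-DeCarli control liquid diet, the 6 ethanol rats received the diet with 9% v/v ethanol for 16 days and were killed without withdrawal (0 h), and the 6 withdrawal rats received 9% v/v ethanol for 15 days and then the control liquid diet for 24 h. All groups lived on liquid diet as their sole food and fluid and were pair-fed, and ethanol was introduced gradually before the full dose. The samples were pieces of whole tissue, so fewer cells of a type and less RNA per cell cannot be told apart in any value below.

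Chemokines are small secreted or membrane-bound proteins that bind receptors on leukocytes and glia and direct their movement. A leukocyte that meets chemokine on the endothelium activates its integrins, which then grip endothelial adhesion molecules of the immunoglobulin family. Transcription of Ccl2, Icam1 and Vcam1 is classically induced by inflammatory cytokines through NF-κB, and that of Icam1 also by interferon through STAT proteins. In the brain, Cx3cl1 is best known as a neuronal ligand for microglia, and Cxcl12 for its part in cell migration and neurogenesis in the hippocampus.

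The promoters of the adhesion genes Icam1 and Vcam1 are shown because they hold matches to motifs of those factors. Each sequence is the 250 bases upstream of the start site from RefSeq on build GRCr8, read 5′ to 3′ on the strand of the gene, at chr8:27829595-27829844 on the plus strand for Icam1 and at chr2:206742784-206743033 on the minus strand for Vcam1. In Icam1 the first capitals mark the κB site known from ICAM1 promoters and the second capitals a STAT-type motif, and in Vcam1 the capitals mark a κB consensus motif.
Icam1: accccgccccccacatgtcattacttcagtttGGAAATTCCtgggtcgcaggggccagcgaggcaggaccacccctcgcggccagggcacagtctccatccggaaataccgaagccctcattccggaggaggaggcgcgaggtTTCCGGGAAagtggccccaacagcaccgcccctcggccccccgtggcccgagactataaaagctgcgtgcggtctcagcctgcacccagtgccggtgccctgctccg
Vcam1: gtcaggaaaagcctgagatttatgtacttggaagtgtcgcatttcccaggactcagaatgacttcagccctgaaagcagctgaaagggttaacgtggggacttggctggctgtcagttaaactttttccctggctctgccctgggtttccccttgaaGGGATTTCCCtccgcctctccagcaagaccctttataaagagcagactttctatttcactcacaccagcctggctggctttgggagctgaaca
The promoters of 7 of the 9 genes were found in the reference, and both strands were searched for 3 motifs. The ICAM1-type κB site, GGAAATTCC, lay from -218 to -210 in Icam1 and was present in 0.287% of the 33469 promoters of the same length. The STAT-type motif, TTCNNNGAA, lay from -107 to -99 in Icam1 and was present in 7.67% of promoters. The κB consensus was present in 6.33% of promoters, and its match in Vcam1, GGGATTTCCC, lay from -93 to -84. The motifs in these promoters did not overlap each other, and none of the 3 was found in the same window of Cx3cl1, Cxcl12, Cxcl14, Cxcl16 or Cd47. A match describes the letters of the sequence, and binding was not measured here.

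Gene counts summed to between 30873228 and 42679748 read pairs per rat, with a median of 36302755. Some libraries stood apart. Withdrawal rat 1 had the highest or lowest level of the 18 rats in 22.5% of the genes tested, ethanol rat 1 in 24.5% and withdrawal rat 5 in 26.8%. Among the 9 genes, withdrawal rat 1 was the extreme rat for 6, being highest for Ccl2, Cx3cl1, Cxcl14 and Icam1 and lowest for Cxcl12 and Cd47. Choroid plexus markers, at 1104 to 2286 CPM summed over 8 genes in control rats, ranged from 29.7 CPM in withdrawal rat 4 to 5430 CPM in withdrawal rat 6, and mural and fibroblast markers summed to 772 CPM in withdrawal rat 5 against 205 to 253 CPM in control rats. Library index sequences, read from the names of the deposited files, formed 3 sets, of which the first held the 6 control rats, the second the 6 ethanol rats and withdrawal rats 1 and 2, and the third the other 4 withdrawal rats, so index set and diet cannot be told apart in comparisons with control. Neuronal markers were present in all rats, with 10 genes summing to between 6264 and 9396 CPM.

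Per kilobase of exon, Cx3cl1 was the most abundant of the 9 genes in control rats at 104 ± 2.85 CPM per kilobase (SD, n = 6). It was followed by Cxcl14 at 40.8 ± 4.09, Cd47 at 30.5 ± 1.86, Cxcl12 at 20.6 ± 2.03, Vcam1 at 10.4 ± 0.784 and Cxcl16 at 3.70 ± 0.365 CPM per kilobase. Each of these lay above the next in every control rat. Icam1, at 1.63 ± 0.180 CPM per kilobase, and Icam2, at 1.33 ± 0.245, overlapped, and Ccl2 was lowest at 0.175 ± 0.110. In ethanol rats the order was the same, and Icam1 lay above Icam2 in every rat. In withdrawal rats Cxcl12 overlapped Vcam1, Cxcl16 overlapped Icam1, and Ccl2, at 1.70 ± 2.37 CPM per kilobase, overlapped both Icam1 and Icam2. By mean CPM over the 18 rats, Cx3cl1 exceeded 98.2% of the genes tested and Ccl2 exceeded 8.91%.

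The comparison of withdrawal with control rats asked which genes differed after 24 h without ethanol. Genes were tested with limma-voom in 1 model of the 18 rats with 3 surrogate variables, which are sources of variation estimated from the data, and a gene was called differentially expressed (DE) at a Benjamini-Hochberg adjusted p, or q, below 0.1. Of the 9 genes, 2 were DE and both rose, namely Ccl2 and Icam1, while 5.51% of all genes tested were DE and 3.14% were DE and higher. Nothing is read from this count beside those shares, here or in withdrawal against ethanol, because Ccl2 was admitted to the test by the withdrawal rats, in which it was high. Between ethanol and control rats 0 of the 9 were DE, against 0.650% of all genes and 0.487% DE and higher, with an unadjusted p below 0.05 by limma-voom for 3 of them and for 12.4% of all genes, and with 1 called by DESeq2, which called 2.62% of all genes. Between withdrawal and ethanol rats only Ccl2 was DE, and it was higher, against 2.75% of all genes and 1.24% DE and higher. The median log2 fold change of the 9 genes was 0.14, 0.11 and 0.13 in these comparisons, beside 0.0038, 0.0036 and 6.3e-05 for all genes, which describes the list and is no test of it, since Ccl2 passed the cutoff through the withdrawal rats. The medians of the 9 were 0.11, 0.032 and -0.0035 without withdrawal rat 1, and 0.10, 0.027 and 0.049 without surrogate variables. Calls over all genes in withdrawal against control were themselves few under some settings, at 0.224% of genes without surrogate variables and 0.118% without withdrawal rat 6. In withdrawal against ethanol 0 of all genes were DE by limma-voom without withdrawal rat 6, ethanol rat 2 or ethanol rat 3, where 491 were with all rats, and 1 was with the replicate number as a block, so every call in that comparison below was lost without any 1 of these rats. With withdrawal rat 6 left out, 10.8% of all genes had an unadjusted p below 0.05. With 1 rat left out at a time, the number of all genes DE ranged from 21 to 1931 in withdrawal against control, from 2 (without control rat 6) to 261 (without ethanol rat 5) in ethanol against control and from 0 to 1813 in withdrawal against ethanol, so that calls on the related lists below hold for the model with 3 surrogate variables and all rats unless another setting is named.

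**Figure D1:**
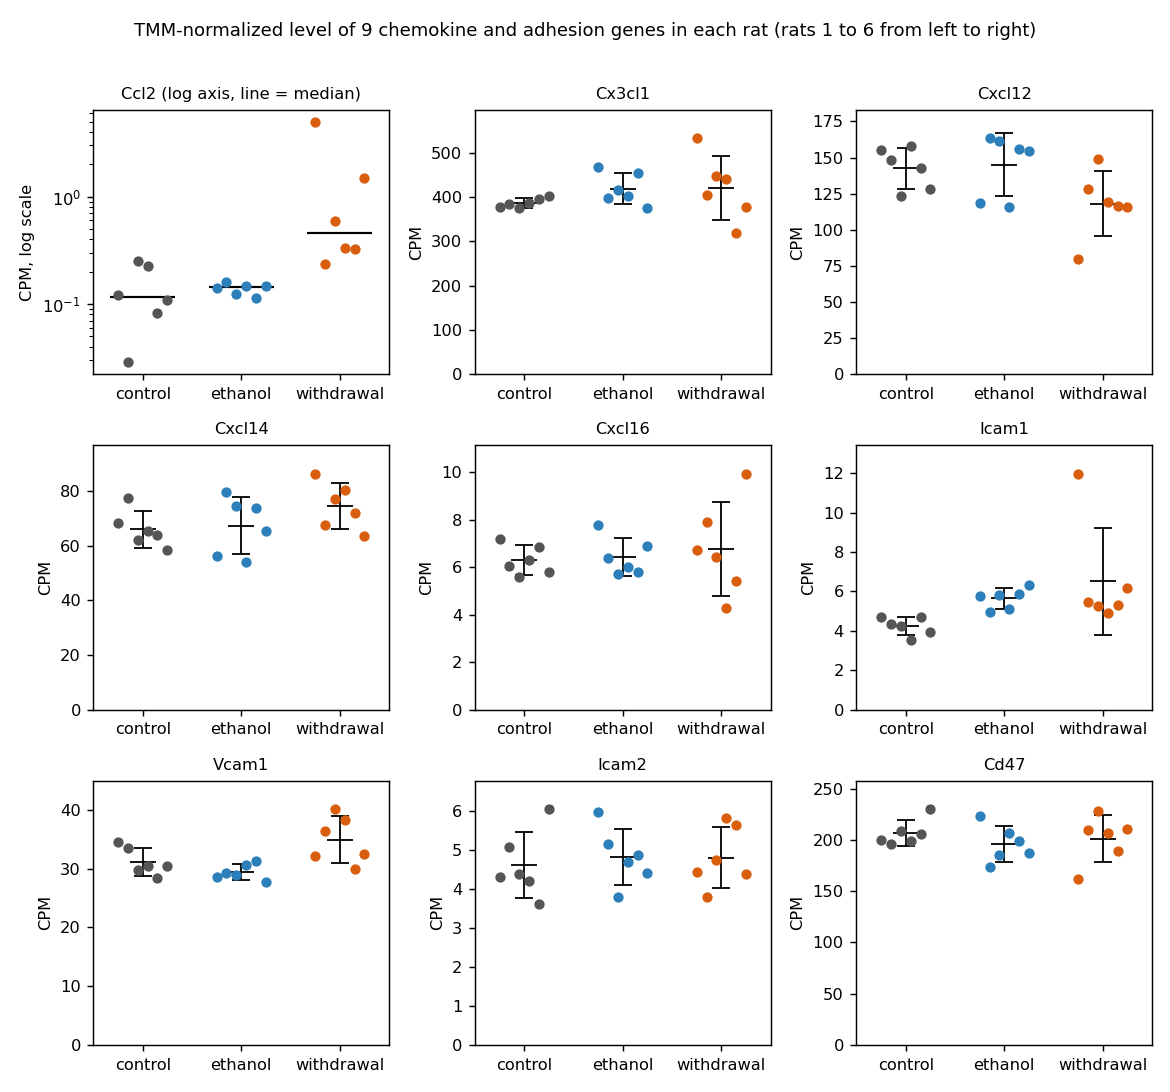
Level of each gene in CPM (TMM-normalized) in each rat, grouped by diet, with rats 1 to 6 from left to right and bars giving mean ± SD, except for Ccl2, which is on a log axis with a line at the median. The withdrawal rats lie above the ethanol rats in Ccl2, both ethanol and withdrawal rats lie above the control rats in Icam1, and withdrawal rat 1 is the highest in Ccl2 at 4.97 CPM and in Icam1 at 11.99 CPM.

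**Figure D2:**
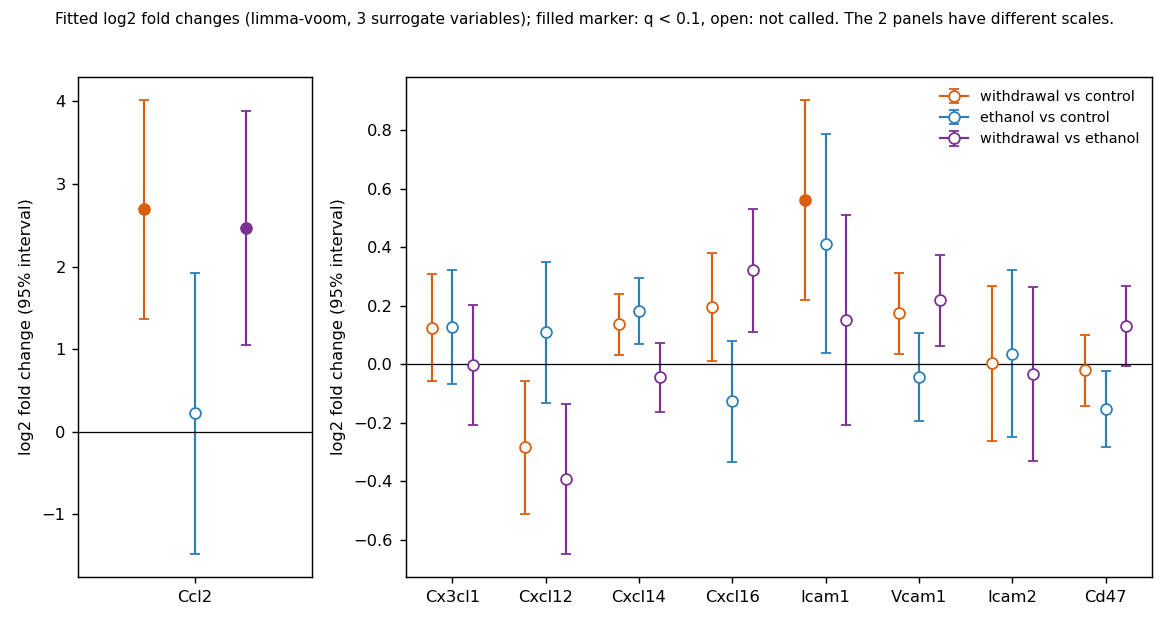
Log2 fold change of each gene in the 3 comparisons, from limma-voom with 3 surrogate variables, with 95% confidence intervals and filled markers where q was below 0.1. The filled markers are Ccl2 in withdrawal against control (2.69) and against ethanol (2.47), and Icam1 in withdrawal against control (0.56).

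Ccl2 (chr10:69412065-69413863, plus strand, build Rnor_6.0), the monocyte-attracting chemokine, had the largest log2 fold change of the 9 genes in both comparisons with withdrawal rats. In control rats it lay between 0.0287 and 0.253 CPM with a median of 0.116 CPM, on 1 to 10 read pairs per rat. In ethanol rats it lay between 0.113 and 0.162 CPM with a median of 0.145 CPM, and in withdrawal rats between 0.236 and 4.97 CPM with a median of 0.463 CPM. Every withdrawal rat was above every ethanol rat, and 5 of the 6 withdrawal rats were above every control rat. Read pairs summed to 29 over the control rats, 30 over the ethanol rats and 273 over the withdrawal rats, of which 153 came from withdrawal rat 1.

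Ccl2 passed the cutoff through withdrawal rats alone, the group in which it was high. The q and p values in this paragraph therefore describe its levels and are no support for a difference. The log2 fold change of Ccl2 between withdrawal and control rats was 2.69 (SE 0.63, limma-voom q = 0.0387), a fold of 6.46 with a 95% confidence interval of 2.57 to 16.2. Against ethanol rats the log2 fold change was 2.47 (SE 0.67, limma-voom q = 0.0872). Two-sided exact permutation tests of log2 CPM, which use no surrogate variables and cannot go below 0.00216 with 6 against 6 rats, gave p = 0.00433 against control and p = 0.00216 against ethanol. Ethanol and control rats gave a log2 fold change of 0.22 (SE 0.81, limma-voom q = 0.942). Its 95% interval was -1.48 to 1.93, so differences in that range remain compatible with these counts. Withdrawal rats 1 and 6, at 4.97 and 1.501 CPM, were far above the other 4, whose mean was 0.371 ± 0.153 CPM. Without both of these rats the difference in log2 CPM was 1.22 against control (exact permutation p = 0.0143) and 1.07 against ethanol (exact permutation p = 0.00476). In the model the call against control was lost without surrogate variables (log2 fold change 2.41, limma-voom q = 0.228), where 0.224% of all genes were DE. Of the 18 fits with 1 rat left out, it was lost in 1, that without withdrawal rat 6 (log2 fold change 2.45, limma-voom q = 0.151). The call against ethanol was lost in 9 of the 18 fits with 1 rat left out, among them that without withdrawal rat 6 (2.02, limma-voom q = 0.376), and also without surrogate variables (2.15, limma-voom q = 0.138). Within the second index set, both withdrawal rats, at 4.97 and 0.236 CPM, lay above the highest of the 6 ethanol rats. The lower of these had 10 read pairs, and the order follows from the lack of overlap between all withdrawal and ethanol rats. The fit within that set did not call Ccl2 (log2 fold change 2.61, SE 1.09, limma-voom q = 0.764), and 0 of all genes were DE in it.

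Icam1 (chr8:22035287-22047049, plus strand, Rnor_6.0), the cytokine-inducible endothelial ligand of the leukocyte integrin made of Itgal and Itgb2, was lower in every control rat than in any rat of the other groups. It lay between 3.52 and 4.72 CPM with a median of 4.29 CPM in control rats, between 4.97 and 6.35 CPM with a median of 5.81 CPM in ethanol rats, and between 4.89 and 11.99 CPM with a median of 5.37 CPM in withdrawal rats. The ethanol and withdrawal rats overlapped each other. Icam1 was the only one of the 9 genes to be higher without overlap in withdrawal than in control, as were 0.605% of all genes tested, and the only one in ethanol, as were 1.01% of all genes. Ccl2 was higher without overlap in withdrawal than in ethanol, as were 0.605% of all genes, but since it passed the cutoff through withdrawal rats alone nothing is read from its place beside that share.

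The log2 fold change of Icam1 was 0.56 between withdrawal and control (SE 0.16, limma-voom q = 0.0774), a fold of 1.48 with a 95% interval of 1.17 to 1.87. Between ethanol and control it was 0.41 (SE 0.18, limma-voom q = 0.347), which did not pass the threshold although the exact permutation p was 0.00216, the smallest possible, in both comparisons. No difference beyond the spread was found between withdrawal and ethanol rats (log2 fold change 0.15, 95% interval -0.21 to 0.51, limma-voom q = 0.701). Withdrawal rat 1, at 11.99 CPM, was above every other rat, and the other 5 withdrawal rats had a mean of 5.41 ± 0.474 CPM, close to the 5.65 ± 0.520 CPM of the ethanol rats. Without it the log2 fold change against control was 0.38 (limma-voom q = 0.0686). The call was lost in 6 of the 18 fits with 1 rat left out, being those without withdrawal rat 6 (0.61, limma-voom q = 0.193) or without control rat 1, 2, 3, 4 or 6, and it was lost without surrogate variables (0.52, limma-voom q = 0.251).

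By the exact permutation test at p below 0.05, 3 of the 9 genes differed in withdrawal from control, 2 in ethanol from control and 2 in withdrawal from ethanol, where 13.0%, 13.5% and 14.4% of all genes did. Ccl2, which passed the cutoff through withdrawal rats alone, is 1 of those counted in both comparisons with withdrawal, so these counts are no support. The genes beside Ccl2 and Icam1 were Cxcl12 in the first comparison, Cx3cl1 in the second and Vcam1 in the third, and these 3 did not pass q < 0.1 in these comparisons in the model with 3 surrogate variables.

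Vcam1 (chr2:219071193-219090931, minus strand, Rnor_6.0), the endothelial ligand of the integrin made of Itga4 and Itgb1, had its highest mean in withdrawal rats. It lay between 28.4 and 34.6 CPM (median 30.4 CPM) in control rats, between 27.8 and 31.3 CPM (median 29.1 CPM) in ethanol rats and between 29.9 and 40.2 CPM (median 34.5 CPM) in withdrawal rats. The withdrawal rats overlapped both other groups, with 5 of 6 above every ethanol rat. The log2 fold change was 0.22 against ethanol (SE 0.07, limma-voom q = 0.148, exact permutation p = 0.00649) and 0.17 against control (SE 0.07, limma-voom q = 0.156, exact permutation p = 0.0823). Against control it passed the threshold under 1 of 13 other models of all rats, that with sample quality weights (0.20, q = 0.0960 by limma-voom). Against ethanol it passed under 4 of 13 other models of all rats, without surrogate variables (0.24, limma-voom q = 0.0917), with edgeR without them, with DESeq2 and with sample quality weights. Its highest rats were withdrawal rats 2, 3 and 4, which were not the highest for Ccl2 or Icam1.

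Icam2 (chr10:94569889-94581218, minus strand, Rnor_6.0), an endothelial adhesion molecule expressed without inflammatory stimulation, had means of 4.61 ± 0.848, 4.82 ± 0.730 and 4.81 ± 0.789 CPM (SD, n = 6) in the control, ethanol and withdrawal groups. Its range was 3.62 to 6.06 CPM under the control diet, 3.80 to 5.98 CPM under ethanol and 3.79 to 5.84 CPM in withdrawal, with medians of 4.34, 4.79 and 4.60 CPM. The 3 groups overlapped throughout. Its log2 fold change between withdrawal and control was 0.0032 (95% interval -0.26 to 0.27, limma-voom q = 0.993), a fold between 0.834 and 1.204.

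**Figure D3:**
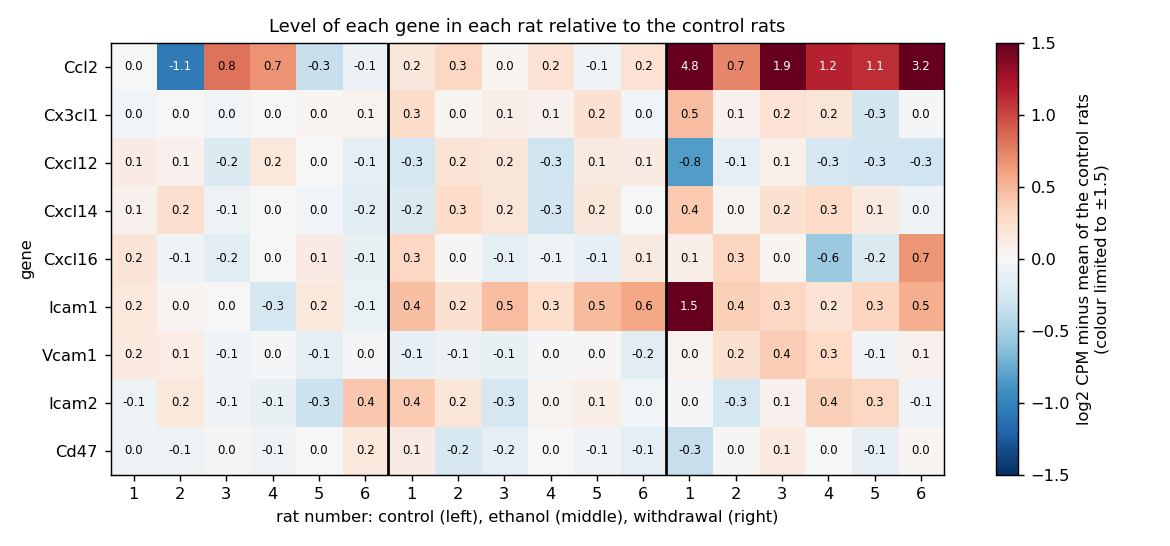
Log2 CPM of each gene (rows) in each rat (columns, by diet and rat number) minus the mean of the 6 control rats, with colours limited to ±1.5 and values printed to 1 decimal. Ccl2 is above the control mean in all 6 withdrawal rats and Icam1 in all 12 ethanol and withdrawal rats, with withdrawal rat 1 the highest in both genes and the lowest in Cxcl12.

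Cxcl12 (chr4:149261044-149273891, plus strand, Rnor_6.0), the ligand of Cxcr4, was the only chemokine of the 5 with a negative log2 fold change in withdrawal against control. It lay between 123 and 158 CPM (median 145 CPM) in control rats, between 116 and 163 CPM (median 155 CPM) in ethanol rats and between 79.7 and 149 CPM (median 118 CPM) in withdrawal rats. Of the withdrawal rats, 4 were below every control rat, and withdrawal rat 1 was the lowest of all 18 rats. The log2 fold change was -0.28 against control (SE 0.11, limma-voom q = 0.159, exact permutation p = 0.0390) and -0.39 against ethanol (SE 0.12, limma-voom q = 0.120), and neither passed the threshold in this model. Against ethanol it passed under 3 of 13 other models, at -0.41 with 4 surrogate variables, -0.39 with DESeq2 and -0.37 with sample quality weights, and against control under 1, at -0.30 with 4 surrogate variables. Without withdrawal rat 1 the permutation test against control gave p = 0.0823 (exact, 5 against 6 rats), and without withdrawal rat 6 it gave p = 0.0649 (exact). Of the 18 fits with 1 rat left out, Cxcl12 passed in 1 against control and in 6 against ethanol. Among the 6 was that without withdrawal rat 1 (limma-voom q = 0.0601).

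Cx3cl1 (chr19:10644267-10654861, minus strand, Rnor_6.0), the membrane-tethered chemokine of neurons, varied little among control rats and more among withdrawal rats. Its range was 375 to 403 CPM under the control diet, 376 to 468 CPM under ethanol and 320 to 533 CPM in withdrawal, with medians of 386, 410 and 423 CPM. The withdrawal rats enclosed the control rats on both sides, with rat 1 the highest and rat 5 the lowest of all rats. The log2 fold changes against control were 0.12 in withdrawal (SE 0.09, limma-voom q = 0.446) and 0.13 in ethanol (SE 0.09, limma-voom q = 0.611, exact permutation p = 0.0498). Its coefficient of variation was 2.74% in control rats, 8.36% in ethanol rats and 17.1% in withdrawal rats.

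Cxcl14 (chr17:9109731-9117754, plus strand, Rnor_6.0), a chemokine that brain interneurons are known to express, lay between 58.2 and 77.5 CPM (median 64.6 CPM) in control rats, between 54.0 and 79.7 CPM (median 69.6 CPM) in ethanol rats and between 63.4 and 86.3 CPM (median 74.4 CPM) in withdrawal rats. All groups overlapped. Its log2 fold change was 0.14 in withdrawal against control (SE 0.05, limma-voom q = 0.141). In ethanol against control it was 0.18 (SE 0.05, limma-voom q = 0.155), but 0.021 without surrogate variables (limma-voom q = 0.957), so this value depends on the surrogate variables, and it passed the threshold with DESeq2 and with sample quality weights.

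Cxcl16 (chr10:57060005-57064600, minus strand, Rnor_6.0), a transmembrane chemokine that binds Cxcr6, lay between 5.60 and 7.21 CPM (median 6.19 CPM) in control rats, between 5.72 and 7.79 CPM (median 6.20 CPM) in ethanol rats and between 4.27 and 9.95 CPM (median 6.58 CPM) in withdrawal rats. The withdrawal rats spread on both sides of the other groups. The log2 fold change was 0.19 against control (SE 0.09, limma-voom q = 0.229) and 0.32 against ethanol (SE 0.10, limma-voom q = 0.121), but 0.076 and 0.049 without surrogate variables (limma-voom q = 0.893 and 0.898). Of 13 other models only DESeq2 called it against ethanol (0.31). The highest level of Cxcl16, 9.95 CPM, was in withdrawal rat 6, which had the highest sum of choroid plexus markers at 5430 CPM. Ethanol rat 1, with the next highest sum at 5409 CPM, had the highest level of the ethanol rats at 7.79 CPM. The lowest levels, 4.27 and 5.41 CPM, were in withdrawal rats 4 and 5, whose choroid plexus markers summed to 29.7 and 32.4 CPM. Other rats did not follow this order, since withdrawal rat 2 was at 7.89 CPM with a sum of 2477 CPM, ethanol rat 4 at 6.02 CPM with 3661 CPM and ethanol rat 6 at 6.88 CPM with 5030 CPM. The part of choroid plexus tissue in the level of Cxcl16 was not tested.

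Cd47 (chr11:53511485-53575754, minus strand, Rnor_6.0), the signal that spares cells from phagocytosis through Sirpa, was high in all groups. It lay between 196 and 230 CPM (median 203 CPM) in control rats, between 174 and 224 CPM (median 193 CPM) in ethanol rats and between 162 and 228 CPM (median 208 CPM) in withdrawal rats. All groups overlapped, and the lowest rat was withdrawal rat 1. Its log2 fold change was -0.15 in ethanol against control (SE 0.06, limma-voom q = 0.314) and -0.021 in withdrawal against control (95% interval -0.14 to 0.10, limma-voom q = 0.874).

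The direct partners of the 9 genes were examined next. Of the 14 listed receptors, integrin chains and proteases, 12 were tested, and only Itgb1, the integrin chain shared by many matrix and adhesion receptors, was DE. It lay between 94.96 and 112 CPM in control rats, between 95.3 and 117 CPM in ethanol rats and between 111 and 146 CPM in withdrawal rats. Its log2 fold change was 0.21 against control (SE 0.05, limma-voom q = 0.0296) and 0.20 against ethanol (SE 0.05, limma-voom q = 0.0761), and its highest value was in withdrawal rat 5, the rat with the most mural and fibroblast marker RNA, whose part in it was not tested. Both calls were lost without withdrawal rat 6 (limma-voom q = 0.131 and 0.335) and without surrogate variables (limma-voom q = 0.171 and 0.132).

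Of the receptors, Cx3cr1, the microglial receptor of Cx3cl1, had means of 15.9 ± 0.918, 16.6 ± 2.21 and 15.4 ± 2.30 CPM (SD, n = 6) in control, ethanol and withdrawal rats. Cxcr4 and Ackr3, the signaling and the scavenging receptor of Cxcl12, had medians of 3.65 and 19.8 CPM in control rats and of 3.83 and 21.8 CPM in withdrawal rats. Cxcr6, the receptor of Cxcl16, did not exceed 0.5 CPM in any rat, and none of these receptors was DE. The proteases that shed Cx3cl1 and Cxcl16, Adam10 and Adam17, were at 74.3 ± 5.10 and 28.0 ± 1.60 CPM in control rats and at 75.4 ± 3.85 and 30.8 ± 3.07 CPM in withdrawal rats, with neither DE.

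Of the leukocyte integrin chains, Itgal, the partner of both Icam1 and Icam2, was at 2.18 ± 0.176 CPM under the control diet, 1.70 ± 0.155 CPM under ethanol and 2.18 ± 0.547 CPM in withdrawal. Its log2 fold change in ethanol against control was -0.41 (SE 0.14, limma-voom q = 0.240, exact permutation p = 0.00433), in the opposite direction to Icam1. Itgam, a further partner of Icam1 that microglia also express, was at 19.5 ± 2.49 CPM under the control diet, 15.5 ± 2.69 CPM under ethanol and 19.96 ± 3.10 CPM in withdrawal, and its log2 fold change in ethanol against control was -0.22 (limma-voom q = 0.456, exact permutation p = 0.0108). Itgb2, Itga4 and the Cd47 receptor Sirpa were not DE in any comparison. Of 5 Cd47 partners tested, 0 were DE in any comparison by limma-voom with 3 surrogate variables, but Thbs2, a matrix ligand of the same family as Thbs1, was DE and higher in withdrawal against control with the replicate block (log2 fold change 1.06, limma-voom q = 0.0832), with 4 surrogate variables and with only these 2 groups. Thbs1, a matrix ligand of Cd47, lay between 4.24 and 6.80 CPM in 5 withdrawal rats and at 195 CPM in withdrawal rat 5, and was not DE (limma-voom q = 0.658 against control).

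Among 31 other chemokines, 14 passed the cutoff, and 1 was DE and higher in withdrawal against control and 1 in withdrawal against ethanol. The first was Ccl7, a monocyte chemokine encoded beside Ccl2, which lay between 0.0287 and 0.138 CPM in control rats and between 0.0707 and 2.24 CPM in withdrawal rats (a log2 fold change of 2.51, SE 0.76, limma-voom q = 0.0890). Its highest rats were withdrawal rats 1 and 6, at 2.24 and 1.84 CPM, as for Ccl2, and it exceeded the cutoff of 0.5 CPM in these 2 rats only. The second was Cxcl11, an interferon-inducible ligand of Cxcr3, which lay between 0.0270 and 0.142 CPM in ethanol rats and between 0.169 and 1.36 CPM in withdrawal rats with no overlap (log2 fold change 2.19, SE 0.60, limma-voom q = 0.0883), and exceeded the cutoff in withdrawal rat 1 only. Ccl7 read pairs numbered 1 to 5 per control rat and Cxcl11 read pairs 1 to 5 per ethanol rat, so these values rest on few counts. Of the 14 chemokines, 5 passed the cutoff through withdrawal rats alone, so the count of those called does not bear on the list. Without withdrawal rat 1 there were 12 tested, not including Cxcl11, and without withdrawal rat 6 there were 13, and 0 were DE by limma-voom in either case. Ccl7 was also not DE against control without surrogate variables (2.22, limma-voom q = 0.313), while with the replicate block both Ccl7 and Cxcl11 were DE and higher against control. Of 13 chemokine receptors tested, 0 were DE in any comparison by limma-voom with 3 surrogate variables, with an unadjusted p below 0.05 for 1, 3 and 2 of them in the 3 comparisons, where 19.8%, 12.4% and 16.8% of all genes had one. Cxcr1, a neutrophil chemokine receptor, was DE and lower in withdrawal against ethanol without surrogate variables (log2 fold change -1.75, limma-voom q = 0.0690) and without withdrawal rat 1 (-1.45, limma-voom q = 0.0842).

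Of 16 other adhesion molecules tested, 3 were DE and higher and 1 was DE and lower in withdrawal against control, with a median log2 fold change of 0.071. Of all genes, 5.51% were DE in that comparison, 3.14% were DE and higher, and 2.75% were DE in withdrawal against ethanol. Pecam1, which lines endothelial junctions, was at 11.99 ± 0.983 CPM under the control diet, 14.3 ± 1.62 CPM under ethanol and 15.1 ± 1.90 CPM in withdrawal (log2 fold change 0.34 against control, SE 0.07, limma-voom q = 0.0230). Alcam rose by 0.17 (limma-voom q = 0.0502) and Esam by 0.19 (limma-voom q = 0.0899) on the log2 scale. Selplg, the selectin ligand that microglia also express, fell by 0.58 on the log2 scale (limma-voom q = 0.0718), from 20.6 ± 3.95 to 13.2 ± 4.87 CPM, with withdrawal rat 1 the lowest at 6.30 CPM. In withdrawal against ethanol Alcam rose by 0.20 (limma-voom q = 0.0656) and Icam5, a neuronal member of the Icam family, fell by 0.34 (limma-voom q = 0.0377), although Icam5 CPM overlapped widely (exact permutation p = 0.411). The selectin Sele was not DE and Selp did not exceed 0.5 CPM in any rat. Without withdrawal rat 1 the counts in withdrawal against control were 2 higher and 0 lower, and without withdrawal rat 6 or without surrogate variables they were 0 and 0. Against ethanol they were 0 and 0 without withdrawal rat 6 or with the replicate block, and Icam5 was not DE without surrogate variables (limma-voom q = 0.561).

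**Figure D4:**
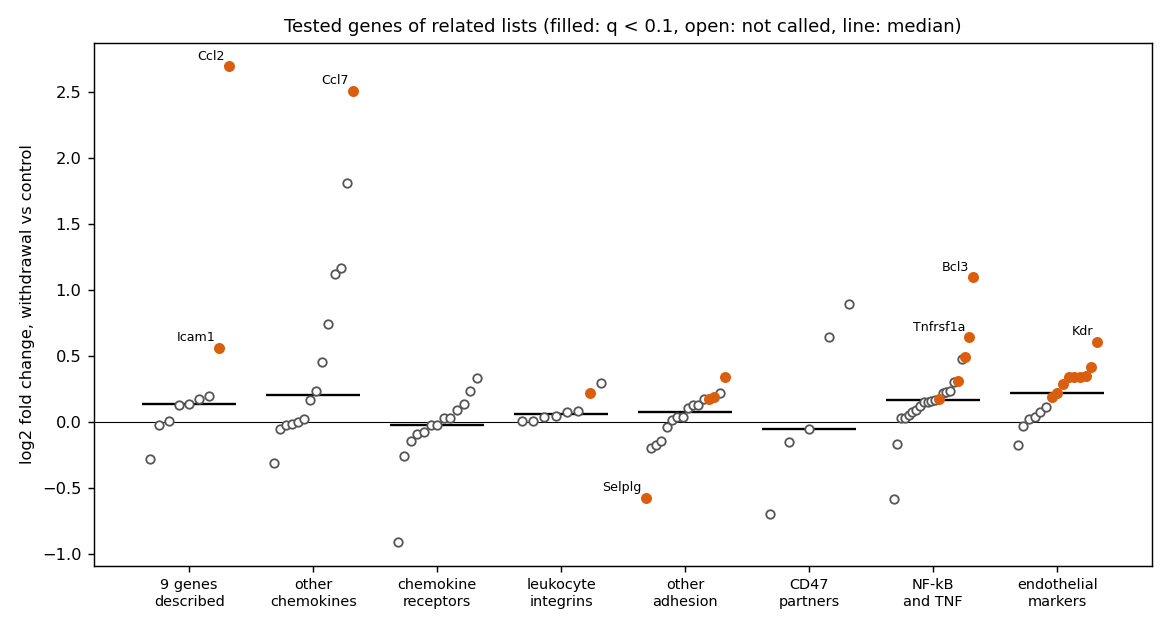
Log2 fold change between withdrawal and control rats (limma-voom, 3 surrogate variables) of the tested genes of each list, ordered within the list, with filled points where q was below 0.1 and a line at the median. Ccl2 and Ccl7 stand highest among the chemokines at 2.69 and 2.51, no chemokine receptor is filled in this model, and 5 genes of the NF-κB and TNF list and 9 endothelial markers are filled above 0.

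The NF-κB and TNF pathway, which drives transcription of Ccl2, Icam1 and Vcam1 in other settings, had 22 tested genes on a list chosen with earlier results of these rats known, so that its counts are not independent evidence. In withdrawal against control 5 of them were DE, all higher, where 3.14% of all genes were DE and higher. The median log2 fold change was 0.16, beside 0.0038 for all genes. They were the TNF receptor Tnfrsf1a (0.64, q = 0.0186), the NF-κB subunits Relb (0.49, q = 0.0342) and Nfkb1 (0.17, q = 0.0674), the NF-κB cofactor Bcl3 (1.09, q = 0.0814) and the interferon-responsive factor Irf1 (0.31, q = 0.0876), all log2 fold changes by limma-voom. Tnfrsf1a lay between 10.1 and 12.2 CPM in control rats and between 12.5 and 25.7 CPM in withdrawal rats without overlap, and rats 1 and 6 were again its highest at 25.7 and 20.5 CPM. Relb lay between 2.43 and 3.15 CPM in ethanol rats and between 3.44 and 5.62 CPM in withdrawal rats without overlap, and its highest rats were withdrawal rats 1 and 5. In withdrawal against ethanol 2 were DE, Relb (0.54, q = 0.0578) and Tnfrsf1a (0.52, q = 0.0654), and in ethanol against control 0 were DE by limma-voom, with an unadjusted p below 0.05 for 2. Of all genes, 2.75% were DE in withdrawal against ethanol, and 12.4% had such a p in ethanol against control. The cytokine gene Tnf was listed at 0 in all 18 rats, and Il1b, Il6 and Ifng did not exceed 0.5 CPM in any rat. Without surrogate variables, or without withdrawal rat 6, 0 genes of the list were DE in withdrawal against control, and without withdrawal rat 1 there were 3. Against ethanol 0 were DE without withdrawal rat 6 or with the replicate block, and without surrogate variables there were 3 higher and 1 lower, with Tnfrsf1a not among them (0.40, limma-voom q = 0.169).

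Cell type markers were examined beside these genes. Of 15 endothelial markers, 9 were DE and higher in withdrawal against control, 1 in ethanol against control and 0 in withdrawal against ethanol, and Pecam1 and Esam, described among the adhesion molecules, were 2 of the 9. Of all genes, 3.14%, 0.487% and 1.24% were DE and higher in these comparisons. The list was chosen with earlier results of these rats known, so its counts are not independent evidence. By smallest q the others were led by Eng (log2 fold change 0.35, limma-voom q = 0.0199), a coreceptor of the TGF-β family that also rose in ethanol against control (0.36, limma-voom q = 0.0721), the VEGF receptor Kdr (0.60, limma-voom q = 0.0264), Egfl7 (0.41, limma-voom q = 0.0296) and the sialomucin Emcn (0.34, limma-voom q = 0.0481). Their sum was 508 to 576 CPM (median 546 CPM) in control rats, 556 to 643 CPM (median 615 CPM) in ethanol rats and 558 to 710 CPM (median 615 CPM) in withdrawal rats, with withdrawal rat 1 the highest. Without withdrawal rat 1 the count in withdrawal against control was 5, and it was 0 without withdrawal rat 6 or without surrogate variables. The call of Eng in ethanol against control was lost without surrogate variables (limma-voom q = 0.139) and with the replicate block (limma-voom q = 0.121). The part of endothelial RNA in the level of Icam1 was not tested.

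**Figure D5:**
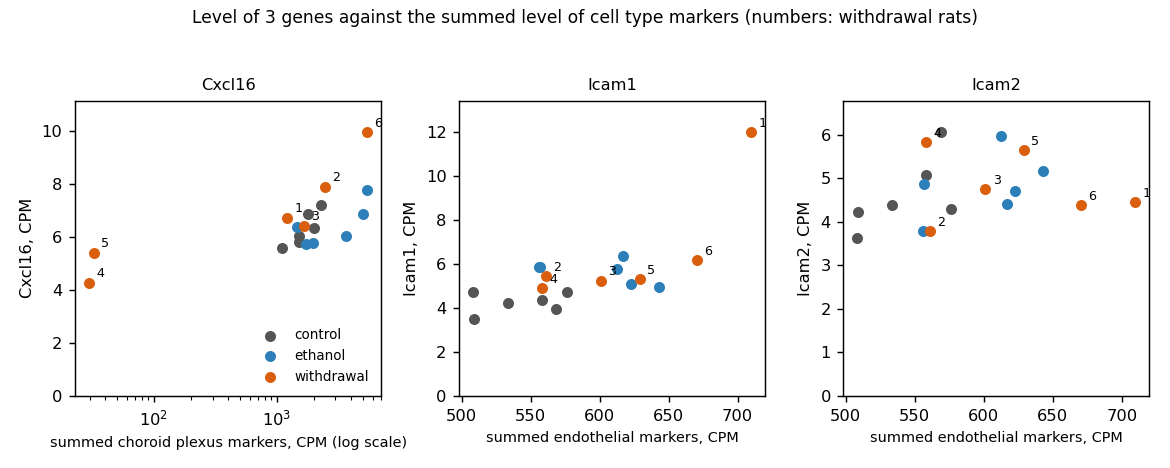
Level of Cxcl16, Icam1 and Icam2 in CPM in each rat against the summed CPM of choroid plexus or endothelial markers, coloured by diet, with withdrawal rats numbered and a log horizontal axis for choroid plexus. Withdrawal rats 4 and 5 have the lowest choroid plexus sums and the lowest Cxcl16 levels, and withdrawal rat 1 has the highest endothelial sum at 710 CPM and the highest Icam1 level, while its Icam2 level is 4.45 CPM.

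Markers of other brain cells also differed. Of 10 astrocyte markers, Gfap, the intermediate filament of astrocytes, rose in withdrawal against control (log2 fold change 0.54, limma-voom q = 0.0769) and against ethanol (0.74, limma-voom q = 0.0578), while Aldh1l1 (-0.41, limma-voom q = 0.0496) and the gap junction gene Gja1 (-0.13, limma-voom q = 0.0947) fell against control. The astrocyte sum was 5473 to 6265 CPM under the control diet, 5156 to 5919 CPM under ethanol and 5804 to 6862 CPM in withdrawal. Of 8 oligodendrocyte lineage markers, Olig2 rose in withdrawal against control (0.29, limma-voom q = 0.0217) and against ethanol (0.31, limma-voom q = 0.0439), and Olig1 in ethanol against control (0.22, limma-voom q = 0.0721). By log2 fold change 4 of the 8 were lower in withdrawal against control, 5 in withdrawal against ethanol and 5 in ethanol against control. With the replicate block 1 was DE and higher and 2 were DE and lower in withdrawal against control. Of 10 mural and fibroblast markers tested, Pdgfrb, a pericyte receptor, rose in withdrawal against control (0.25, limma-voom q = 0.0702), and of 10 neuronal markers Gad2, an enzyme of GABA synthesis, rose in withdrawal against ethanol (0.35, limma-voom q = 0.0584). In withdrawal against control 0 genes of these 4 lists were DE without surrogate variables or without withdrawal rat 6, and without withdrawal rat 1 Gfap and Gja1 were not DE (limma-voom q = 0.190 and 0.156) while 4 mural and fibroblast markers were. The call of Olig1 in ethanol against control was lost without withdrawal rat 6 (limma-voom q = 0.108) and with the replicate block (limma-voom q = 0.142). Against ethanol the calls of Gfap, Olig2 and Gad2 were lost without withdrawal rat 6 and with the replicate block, and that of Olig2 also without surrogate variables (limma-voom q = 0.274). The part of these cells in the levels of the 9 genes was not tested. For all genes the share DE was 5.51% in withdrawal against control, 2.75% in withdrawal against ethanol and 0.650% in ethanol against control.

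Of 16 listed markers of blood leukocytes and border macrophages, 6 were tested, of which 0 were DE and higher and 1 was DE and lower in withdrawal against control. For all genes the share DE was 5.51% in that comparison, 2.75% in withdrawal against ethanol and 0.650% in ethanol against control. The lower one was Cd4, a T cell and macrophage marker (log2 fold change -0.47, limma-voom q = 0.0702), and it was not DE without withdrawal rat 1, without withdrawal rat 6 or without surrogate variables. The sum over the 14 matched markers was 35.9 to 41.7 CPM under the control diet, 26.5 to 40.3 CPM under ethanol and 24.4 to 43.1 CPM in withdrawal. The pan-leukocyte gene Ptprc was at 6.30 ± 0.860 CPM in control rats and 5.74 ± 0.578 CPM in withdrawal rats, and the neutrophil genes S100a8 and S100a9 did not exceed 0.5 CPM in any rat. Of 11 microglial markers tested, the complement genes C1qb and C1qc were DE and higher in withdrawal against control (log2 fold change 0.39, limma-voom q = 0.0186, and 0.39, limma-voom q = 0.0869), C1qb also against ethanol (0.35, limma-voom q = 0.0483), which was lost without withdrawal rat 6 and with the replicate block. Against control 1 of the 11 was DE without withdrawal rat 1 and 0 without withdrawal rat 6 or surrogate variables, and the microglial sum was 333 to 396 CPM in control rats and 317 to 401 CPM in withdrawal rats. The 5 red cell genes tested, namely Alas2, Hba-a1, Hba-a2, Hba-a3 and Hbb, were DE and lower in both ethanol and withdrawal against control, although in withdrawal 1 was DE without withdrawal rat 6 and 3 without surrogate variables, and in ethanol 2 were DE with the replicate block and 0 to 5 with 1 rat left out at a time, with Hbb at 83.8 ± 15.1, 27.4 ± 8.78 and 35.4 ± 20.5 CPM in control, ethanol and withdrawal rats.

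The genes whose log2 CPM ran most nearly parallel to each member over the 18 rats were ranked among 14426 genes with a mean of at least 1 CPM, as a description in which group means and the extreme rats are shared. For Ccl2 they were Bcl3 (Pearson r = 0.93), Maff (r = 0.92) and Osmr (r = 0.91), with r = 0.84, 0.85 and 0.79 when withdrawal rat 1 was left out. For Icam1 they were Pmepa1 (r = 0.90), Furin (r = 0.89) and Gadd45g (r = 0.89), with r = 0.72, 0.70 and 0.84 without that rat. For Vcam1 they were Anxa3 (r = 0.86), Ptprz1 (r = 0.86) and Fgfrl1 (r = 0.85), with r = 0.89, 0.86 and 0.87 without it. Ccl2 and Icam1 were themselves related at r = 0.70 over the 18 rats, and at r = 0.28 without withdrawal rat 1.

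The other members had different nearest genes. Cx3cl1 was closest to C8h11orf87, Mark4 and Mapk8ip1 (r = 0.88, 0.87 and 0.84), Cxcl12 to Tmem44, Entrep3 and Ehd1 (r = 0.89, 0.88 and 0.88) and Cxcl14 to Prpf40b, Mapre3 and Bcl9 (r = 0.89, 0.89 and 0.88). Cxcl16 was closest to Lama2, Trim63 and Baiap2l1 (r = 0.89, 0.88 and 0.87), Icam2 to Brsk2, Pcdh10 and Kdm8 (r = 0.81, 0.78 and 0.71) and Cd47 to Tdrd7, Pcdhga10 and Gltp (r = 0.84, 0.79 and 0.78). No gene was among the nearest 3 of more than 1 member.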

How the data were processed

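The authors sequenced stranded mRNA libraries as read pairs, aligned them with STAR 2.5.2a to Rnor_6.0 with the NCBI annotation, and deposited raw counts of read pairs per gene from featureCounts 1.5.0, assigned by strand to exons without pairs that mapped to several places. Counts from 38445 gene identifiers were used as deposited, and 29322 identifiers were named from the RefSeq table of GRCr8. All 45 pairs of libraries within groups differed by more than sampling noise.

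Counts were scaled by the TMM method of edgeR 4.0.16. Genes that exceeded 0.5 CPM in 1 or more rats entered limma 3.58.1 (voom) with 3 surrogate variables from sva 3.50.0 (log2 CPM, prior count 2) in R 4.3.3, all 18 rats in 1 model, with q < 0.1 as in the study. The study does not state how many surrogate variables it used or how many rats had to pass the cutoff. Both choices follow an earlier analysis of these data. Two-sided exact permutation tests used log2 CPM in Python 3.11.15. In data simulated for withdrawal against control with 200 of 17853 genes changed 2-fold, limma-voom recovered 179 with 16 false calls. The changed genes were drawn from those with a mean above 1 CPM, so genes as low as Ccl2 were not covered. These simulated data held no hidden source of variation and no deviating rats, so they do not measure how reliable the calls here are. An SD gives the spread between rats. A confidence interval gives the precision of a fitted difference in the model with 3 surrogate variables. For Ccl2, with 1 to 10 read pairs per control rat, the counts limit the precision.

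The members and lists were chosen with earlier results of these data known, and so were the alternatives, which were other numbers of surrogate variables, edgeR quasi-likelihood, DESeq2 1.42.0, quality weights, other scalings and filters, a replicate block, models of the groups compared and leaving out each rat. The fit within 1 index set and the permutation tests without withdrawal rats 1 and 6 were added after seeing the data. Named genes were all members, their partners, and in each other list those with q < 0.1 (at most the 5 of smallest q per comparison) or defining markers. Sele, Selp, Tnf, Il1b, Il6, Ifng, Cxcr1 and Thbs2 were named after their values were seen. The human samples, protein assays and chromatin assays of the study were not analysed here.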

Additional observations from a re-analysis of the deposited data

Results flagged for a closer look

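Icam1 in the withdrawal rats was singled out because the highest rat lay far from the others. The gap from withdrawal rat 1, at 11.99 CPM, to the next rat, withdrawal rat 6 at 6.17 CPM, was 0.740 of the range of log2 CPM in the group, above the 95% critical value of Dixon's test for 6 samples. It was 1 of 27 groups examined, being 9 genes in 3 groups, and chance alone marks about 1 in 20 such groups. The log2 fold change of Icam1 between withdrawal and control rats was 0.56 with this rat and 0.38 without it.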

How the results depend on the processing

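Whether 2 of the 9 genes were DE in withdrawal against control depended on the model. The count was 0 without surrogate variables and 0 with edgeR without them, where 0.224% and 0.218% of all genes were DE in place of 5.51%, 1 with 2 surrogate variables, 1 with a filter of 0.5 CPM in at least 6 rats (which removed Ccl2), 1 with no filter and 1 at q under 0.05, and it rose to 3 with 4 surrogate variables (also Cxcl12) and with sample quality weights (also Vcam1). The share of all genes DE was 3.22% with 2 surrogate variables, 6.37% with the 6-rat filter and 1.66% with no filter. It was 7.7% with 4 surrogate variables and 6.44% with quality weights. In ethanol against control the count of 0 became 1, Cxcl14, with DESeq2 and with sample quality weights, which called 2.62% and 2.53% of all genes in place of 0.650%. In withdrawal against ethanol the count of 1 became 0 with 2 surrogate variables, the 6-rat filter, no filter, only the 2 groups compared, the second index set alone or q under 0.05 (0 of all genes were DE with only the 2 groups or in the second index set), 2 with 4 surrogate variables (Ccl2, Cxcl12) or with edgeR without surrogate variables (Ccl2, Vcam1), and 3 with DESeq2 (Cxcl12, Cxcl16, Vcam1) or quality weights (Ccl2, Cxcl12, Vcam1), while the 1 without surrogate variables was Vcam1. The share of all genes DE there was 1.42% with 2 surrogate variables, 3.06% with the 6-rat filter and 0.566% with no filter. It was 5.09% with 4 surrogate variables, 3.75% with edgeR without surrogate variables, 6.63% with DESeq2 and 6.1% with quality weights. Without surrogate variables it was 3.44%, and with 3 of them 2.75%. With 1 rat left out at a time the counts ranged from 0 to 3, from 0 to 1 and from 0 to 3 in the 3 comparisons, with 0 in withdrawal against control without withdrawal rat 6, where 21 of all genes were DE in place of 983. The cause was not tested. DESeq2 gave no adjusted p for Ccl2 in 2 comparisons.

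With the replicate number as a block, the count was 2 in withdrawal against control, 0 in ethanol against control and 0 in withdrawal against ethanol, where 1 of all genes was DE, and Icam2 changed to -0.036 in withdrawal against control. The numbers did not pair the rats, as deviations of same-numbered rats correlated at r = -0.32 to 0.08, -0.26 to 0.33 and -0.31 to 0.38.

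Signs of log2 fold changes near 0 changed under some settings. In withdrawal against control Icam2 was -0.0051 with DESeq2, -0.00029 with median-ratio size factors, -0.014 with library size alone, -0.021 with no filter and -0.012 with only the 2 groups, and Cd47 was 0.025 with quality weights. In ethanol against control Cxcl16 was 0.027 without surrogate variables and 0.027 with edgeR without them, Ccl2 was -0.25 with 2 surrogate variables, and Icam2 was -0.015 with quality weights and -0.031 with only the 2 groups. In withdrawal against ethanol Cxcl14 was 0.15 without surrogate variables, 0.14 with edgeR without them and 0.20 in the second index set, Cx3cl1 was 0.0090 with 2 surrogate variables, 0.017 with 4, 0.0072 with edgeR with 3, 0.0053 with edgeR without any, 0.0066 with DESeq2, 0.0028 with no filter and 0.16 in the second index set, Icam2 was 0.0015 with 4 surrogate variables and 0.049 with quality weights, and Cd47 was -0.079 in the second index set.

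With 1 rat left out at a time, log2 fold changes that changed sign ranged, in ethanol against control, for Ccl2 from -0.030 to 0.49 and Icam2 from -0.035 to 0.14, and, in withdrawal against control, for Cd47 from -0.091 to 0.024 and Icam2 from -0.063 to 0.079, and, in withdrawal against ethanol, for Cx3cl1 from -0.074 to 0.13, Icam1 from -0.043 to 0.27 and Icam2 from -0.15 to 0.050. Differences of log2 CPM in the permutation tests that changed sign without withdrawal rat 1, withdrawal rat 6 or both ranged, in withdrawal against control, for Cd47 from -0.059 to 0.017 and Cxcl16 from -0.10 to 0.050, and, in withdrawal against ethanol, for Cx3cl1 from -0.080 to 0.019, Cxcl16 from -0.13 to 0.027, Icam1 from -0.11 to 0.13 and Icam2 from 0.013 to 0.047. Of all comparisons of a single gene or count with its alternatives, 330 with all rats and 467 with a rat left out gave the same direction and side of the threshold, 25 and 40 changed sign, 12 and 14 came to pass the threshold and 14 and 19 no longer passed it.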
